A study of Mus musculus with 24 samples.

Results

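The semaphorin, Slit and netrin guidance genes of the mouse thalamus were taken by name. They are all genes whose annotated symbol is that of a class 3 to 7 semaphorin, a plexin, a neuropilin, a Slit, a Robo, a netrin, an Unc5 receptor or Dcc. The choice gave 48 of the 18194 genes measured with a probe set of 1 symbol: 7 secreted and 13 membrane semaphorins, 9 plexins, an antisense RNA of Plxna4 (Plxna4os1), 2 neuropilins, 3 Slits, 4 Robos, 4 netrins and 5 netrin receptors. Where a gene had several probe sets, the brightest on average over the 24 arrays was used. The animals were wild-type mice on a C57BL/6 background, sampled on the day of birth (P0) or at postnatal day 4 (P4). The tissue was the ventrobasal complex (VB), the somatosensory relay of the thalamus, or the dorsal lateral geniculate nucleus (dLGN), the visual relay. In the embBE group both eyes had been cauterized in utero, and controls were not enucleated. By the paper's methods only part of the embryos in a litter were enucleated. Each sample pooled the microdissected nucleus of pups of 1 litter and 1 condition, and its RNA was amplified in 2 rounds before hybridization to 1 Affymetrix array. There were 3 arrays in each of the 8 groups of nucleus, age and condition, apart from dLGN at P0 with 2 control and 4 embBE arrays. The labels number the arrays without saying what the numbers stand for, so p-values measure the spread between these arrays, which may be technical. All values are log2 signals, and a difference of 1 is a 2-fold change.

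Growing axons read these families as guidance signals. Semaphorins signal through plexins, most class 3 semaphorins with a neuropilin as the binding partner. Slits repel axons through Robo receptors, and netrins attract axons through Dcc and repel them through Unc5 receptors. In the embryo these cues steer thalamocortical axons out of the diencephalon, through the ventral telencephalon and towards their cortical areas.

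The labelled tissue was read from marker lists, whose probe sets are not comparable in level with each other. Over the 8 groups, the means of the relay neuron markers Slc17a6, Tcf7l2, Rora and Lhx9 ran from 11.08 to 13.10, those of Lef1 from 9.75 to 10.19, and those of Gbx2 and Lhx2 from 5.44 to 7.97 and 3.59 to 6.40. Of the 5 markers of cortex and hippocampus, Neurod6 and Tbr1 had means of 2.53 to 3.23 and 2.62 to 2.97, Fezf2 of 4.52 to 4.73, Emx1 of 6.61 to 6.86 and Neurod2 of 7.04 to 7.41. A list of 9 genes of GABAergic neurons in nuclei around the relay nuclei had summed levels that varied between arrays at P0. They were 8.42 to 10.82 in control VB and 9.03 to 10.39 in control dLGN. Its gene Gad1 had means of 8.4 in dLGN and 6.36 in VB in controls at P0, and 7.95 and 5.39 at P4. In embBE they were 6.84 and 4.6 at P0, and 8.04 and 6.35 at P4. No gene of this list was called between nuclei, ages or conditions. The part of such neurons in the members' differences was not tested. The nuclei also differed in a measure of RNA length, and the source of that difference was not tested. The gap between the 3' and 5' actin probe sets, which widens with shorter RNA, was 2.21 to 4.27 in the 12 dLGN arrays (median 3.76) and 1.95 to 4.29 in the 12 VB arrays (median 2.27). In embBE the nuclei did not overlap in the gap, with 2.25 to 2.55 in VB and 3.06 to 4.27 in dLGN at P0. At P4 it was 1.98 to 2.05 in embBE VB and 3.33 to 3.94 in embBE dLGN. In controls the nuclei overlapped, with 2.2 to 4.29 in VB and 3.25 to 4.05 in dLGN at P0. At P4 it was 1.95 to 3.14 in control VB and 2.21 to 4.13 in control dLGN. Control arrays 35_1 (P0) and 36_3 (P4) had the widest gaps of the VB, 4.29 and 3.14. The gap moved with the nucleus, so differences between nuclei are also given with the gap as a covariate, a fit added after the data were seen. In bulk tissue, fewer cells of a type and less RNA per cell cannot be told apart.

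Across the 24 arrays the members' means ran from 4.05 to 11.34, and 38 of 48 lay above 6.20, the level over which 12129 of all genes lay. Levels of different probe sets are not comparable between genes. The 10 dim members were Robo2, Robo3, Slit3, Ntn3, Sema3a, Sema3c, Sema3d, Plxnb3, Plxna4os1 and Unc5d. The spread within groups also varied. Its pooled SD had a median of 0.210 over the members, and the widest were Sema3c with 0.648, Dcc with 0.543, Unc5d with 0.488 and Sema3e with 0.441. Sema3c, a secreted semaphorin, read 5.23 and 7.75 in the 2 control dLGN arrays at P0, so its group mean there stands for neither array.

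A single receptor set the 2 nuclei apart in every comparison. Plxna2, a plexin that binds class 6 semaphorins and, with neuropilins, class 3 semaphorins, was 5.80-fold higher in VB than in dLGN in controls at P0 and 8.11-fold higher at P4. In embBE mice the difference was 6.21-fold at both ages. In VB it read 10.32, 9.86 and 10.27 in controls and 10.26, 10.22 and 10.63 in embBE at P0, and 10.44, 10.33 and 10.19 and then 10.27, 10.64 and 10.17 at P4. In dLGN it read 7.42 and 7.81 in controls and 7.73, 7.39, 7.58 and 8.23 in embBE at P0, and 7.37, 7.23 and 7.28 and then 7.54, 7.88 and 7.75 at P4. The lowest of the 12 VB arrays (9.86) thus lay above the highest of the 12 dLGN arrays (8.23).

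On the log2 scale the difference in Plxna2 was 2.54 (SE 0.211, limma adjusted p = 2.13e-06) in controls at P0 and 2.64 (SE 0.177, adjusted p = 2.05e-08) in embBE at P0. At P4 it was 3.02 (SE 0.189, adjusted p = 1.14e-08) in controls and 2.63 (SE 0.189, adjusted p = 7.95e-08) in embBE. By p the gene ranked 1, 2, 1 and 1 of the 18194 genes in these comparisons, and by size 9, 6, 6 and 7. All 4 probe sets of Plxna2 were higher in VB, by 0.98 to 3.10, and each passed an adjusted p of 0.05 in each comparison over all probe sets with 1 symbol. The call held without any 1 array and under each other alternative run, with values of 2.15 to 3.14, and with the actin gap as a covariate the difference was 2.61, 2.81, 3.14 and 2.87.

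**Figure D1:**
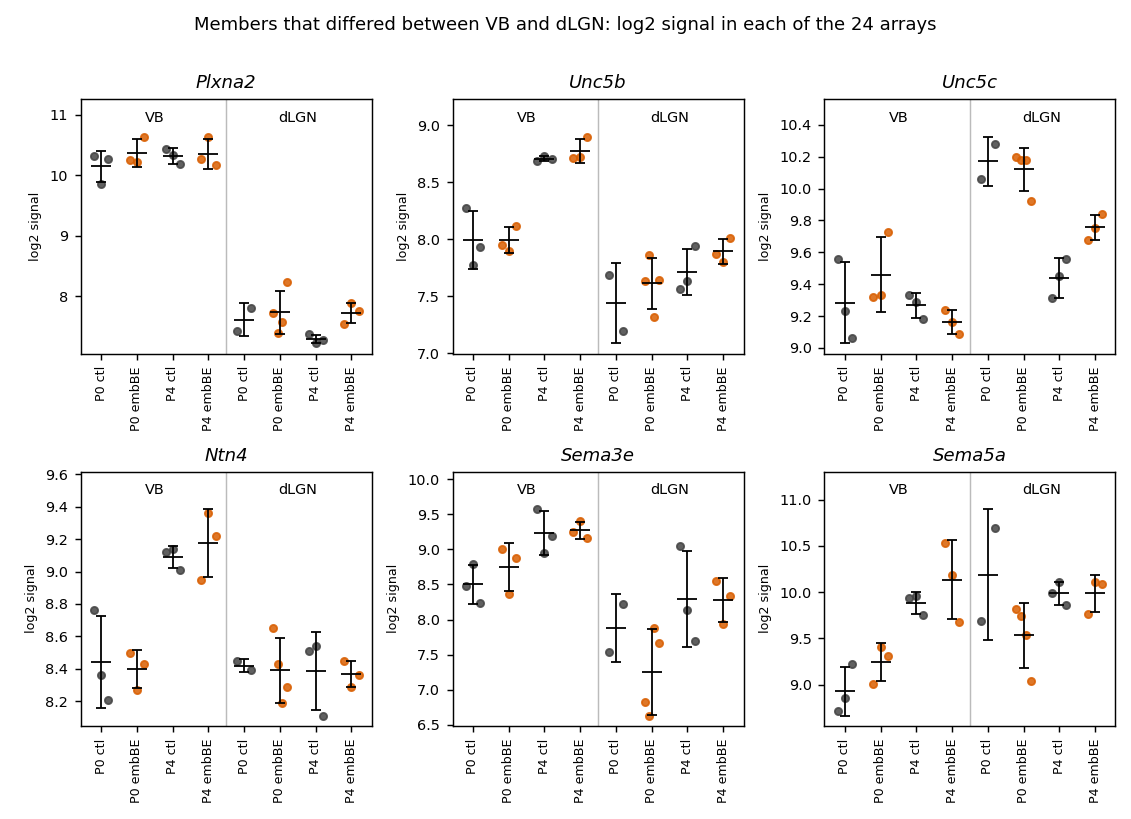
Log2 signal of 6 members that differed between nuclei (y axis) in each array, by group (x axis; ctl, control). Points are arrays, grey for control and orange for embBE, and bars are the group mean and SD. The VB and dLGN arrays of Plxna2 are separated, from 9.86 upward and from 8.23 downward.

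The promoters of Plxna2 and of the 4 members that rose with age in VB (below) are printed, the first for its call in the 4 nucleus comparisons and the others for their calls in both conditions. The windows are RefSeq sequence of build GRCm38.p6, from 250 bases before to 50 after the annotated start, written 5′ to 3′ along the gene. Plxna2, Ntn4, Sema5a and Sema6d lie on the plus strand and Unc5b on the minus strand. Sema6d has 2 such windows and the one with the outer start is shown. The gene annotation begins slightly further out for Plxna2 (194619791) and Sema6d (124089943), so their distances are counted from the start used for the window. Capitals mark matches on either strand to 4 motifs of 6 letters: AGGTCA, the half-site of nuclear receptors such as Rora and Rorb; CTTTGA, the core of Tcf and Lef factors; TAATTA, a homeodomain core; and GGGCGG, the GC box of Sp factors.
Plxna2 chr1:194619579-194619878: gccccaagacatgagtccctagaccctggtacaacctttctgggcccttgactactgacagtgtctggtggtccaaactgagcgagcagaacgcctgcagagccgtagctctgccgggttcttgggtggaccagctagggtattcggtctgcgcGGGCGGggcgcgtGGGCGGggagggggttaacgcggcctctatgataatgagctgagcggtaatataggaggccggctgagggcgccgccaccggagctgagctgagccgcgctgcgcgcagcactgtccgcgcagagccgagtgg
Unc5b chr10:60831532-60831831: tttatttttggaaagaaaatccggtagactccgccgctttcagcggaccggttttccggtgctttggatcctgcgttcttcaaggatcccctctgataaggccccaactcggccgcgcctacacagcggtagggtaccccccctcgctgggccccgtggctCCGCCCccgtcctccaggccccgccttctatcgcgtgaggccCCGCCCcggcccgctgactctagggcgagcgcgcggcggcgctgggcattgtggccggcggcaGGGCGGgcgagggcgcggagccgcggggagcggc
Ntn4 chr10:93640799-93641098: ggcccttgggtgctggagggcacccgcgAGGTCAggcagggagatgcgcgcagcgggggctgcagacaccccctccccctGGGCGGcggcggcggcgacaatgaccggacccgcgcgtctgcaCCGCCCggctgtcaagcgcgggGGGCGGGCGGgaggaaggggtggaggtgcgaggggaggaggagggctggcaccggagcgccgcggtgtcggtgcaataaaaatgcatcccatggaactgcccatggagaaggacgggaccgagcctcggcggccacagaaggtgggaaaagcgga
Sema5a chr15:32244563-32244862: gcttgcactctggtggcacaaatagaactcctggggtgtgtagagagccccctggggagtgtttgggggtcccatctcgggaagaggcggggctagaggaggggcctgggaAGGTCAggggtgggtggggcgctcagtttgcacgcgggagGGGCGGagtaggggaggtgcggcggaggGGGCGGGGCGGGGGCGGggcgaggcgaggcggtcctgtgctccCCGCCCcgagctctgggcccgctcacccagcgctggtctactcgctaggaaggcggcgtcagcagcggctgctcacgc
Sema6d chr2:124089719-124090018: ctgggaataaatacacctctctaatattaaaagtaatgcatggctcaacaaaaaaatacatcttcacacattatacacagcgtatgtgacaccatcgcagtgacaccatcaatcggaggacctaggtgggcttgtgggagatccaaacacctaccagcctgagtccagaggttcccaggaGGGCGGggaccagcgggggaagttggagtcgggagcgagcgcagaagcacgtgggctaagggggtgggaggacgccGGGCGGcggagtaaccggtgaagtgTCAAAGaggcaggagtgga

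Of these windows, Plxna2 and Unc5b held GC boxes and none of the other 3 motifs, the GC boxes of Plxna2 beginning 96 and 83 bases before the start. The half-site stood 222 bases before the start in Ntn4 and 139 bases before it in Sema5a, and Sema6d held the Tcf and Lef core just after its start. Promoters were found for 38 of the 48 members, in 51 windows. The half-site was in 10 of these (19.6%; 16.3% of all 32851 windows), the Tcf and Lef core in 4 (7.84%; 16% of all), the homeodomain core in 1 (1.96%; 5.29% of all) and the GC box in 34 (66.7%; 35.7% of all). A match describes the letters, and no binding was measured.

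Beside Plxna2, members called between VB and dLGN included other receptors, semaphorins and the netrin Ntn4, and they were not the same in every age and condition. In controls at P0, 4 members had an adjusted p under 0.05 in limma (1.56% of all genes did), 1 higher in VB (0.555% of all genes) and 3 lower (1.01%). In embBE at P0 there were 8 (7.46%), 3 higher (3.53%) and 5 lower (3.92%). In controls at P4 there were 4 (3.21%), all higher in VB (1.73%). In embBE at P4 there were 7 (8.44%), 3 higher (4.33%) and 4 lower (4.11%). The nucleus comparisons use the same arrays as the comparisons of ages and conditions below. Over the 4 comparisons 16 members were called at least once, and Plxna2 alone in all of them. A call in 1 condition only does not show a difference between conditions. In the test of that difference no member passed at either age (limma, 0 of 48; 0% of all genes).

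Among the ligands higher in VB, the netrin Ntn4 differed at P4. It read 9.12, 9.14 and 9.01 in control VB against 8.51, 8.54 and 8.11 in control dLGN, and 8.95, 9.36 and 9.22 against 8.45, 8.29 and 8.36 in embBE. No VB array overlapped a dLGN array of its condition at P4. The difference was 0.71 (SE 0.151, limma adjusted p = 0.00904) in controls and 0.81 (SE 0.151, adjusted p = 0.00218) in embBE, and at P0 it was 0.02 and 0.01. The second probe set of Ntn4 is dim (mean 5.27) and did not differ in this way, so that the mean of the 2 gave 0.21 and 0.34 with no call. Without control dLGN array 40_1 the control difference was 0.57 and not called. The actin gap as a covariate gave 0.76 in controls and 0.93 in embBE at P4, both still called.

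The secreted Sema3e, which binds Plxnd1 directly, read 9.0, 8.36 and 8.88 in embBE VB at P0 against 6.83, 6.63, 7.88 and 7.66 in embBE dLGN. The groups did not overlap, and the difference was 1.497 (SE 0.310, limma adjusted p = 0.00604). With the actin gap as a covariate it was 1.03, with an adjusted p of 0.0976, and with the mean of its probe sets 0.58 and still called. The group means of Sema3e were also higher in VB, without a call, in the other comparisons. They were 8.50 against 7.88 in controls at P0, 9.23 against 8.29 in controls at P4 and 9.27 against 8.27 in embBE at P4. Plxnd1 itself differed in controls at P4, with 8.14, 8.49 and 7.94 in VB and 7.32, 7.38 and 7.41 in dLGN, a difference of 0.82 (SE 0.210, adjusted p = 0.0318). This call was lost without any 1 of 5 of the 6 arrays, all but control VB 40_1, with differences of 0.67 to 0.85. The actin gap as a covariate gave 0.99 for Plxnd1, still called. In embBE at P4 the group means of Plxnd1 were 7.86 in VB and 7.39 in dLGN, without a call.

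Of the membrane semaphorins, 3 were lower in VB in embBE at P0. Sema4c read 8.89, 9.34 and 9.19 in embBE VB and 9.84, 10.25, 10.13 and 10.39 in embBE dLGN, a difference of -1.01 (SE 0.239, limma adjusted p = 0.0145). Sema4f read 10.10, 10.11 and 9.83 against 10.88, 10.76, 10.37 and 10.88, a difference of -0.71 (SE 0.164, adjusted p = 0.0118). Sema4a read 8.96, 8.93 and 8.83 against 9.78, 9.74, 9.20 and 9.64, a difference of -0.69 (SE 0.180, adjusted p = 0.0254). For each of the 3 genes every embBE VB array lay below every embBE dLGN array. The secreted Sema3d, with a smaller difference of -0.38, was also called lower in VB. In controls at P0 the group means of the 3 genes were lower in VB too, without a call. They were 9.32 against 10.04 for Sema4c, 10.41 against 10.56 for Sema4f and 9.12 against 9.44 for Sema4a. With the actin gap as a covariate Sema4c, Sema4f and Sema4a had differences of -0.63, -0.36 and -0.25 and none was called. With the mean of the probe sets that of Sema4f was -0.34 and still called, and that of Sema4a -0.24 and not called. The part of RNA length in these differences was not tested beyond that fit. Without 1 array the call of Sema4c was lost for embBE VB 35_3 (-0.88), that of Sema4f for embBE VB 39_4 (-0.62), and that of Sema4a for 6 of the 7 arrays, all but embBE dLGN 39_4 (-0.62 to -0.72).

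In controls at P0 the membrane semaphorins Sema5a and Sema6a were lower in VB. Sema5a, whose class carries thrombospondin repeats, read 8.71, 8.85 and 9.22 in VB and 9.69 and 10.69 in dLGN, a difference of -1.26 (SE 0.271, limma adjusted p = 0.0167). Sema6a, a ligand of Plxna2 and Plxna4, read 7.67, 7.71 and 7.27 in VB and 8.39 and 8.90 in dLGN, a difference of -1.09 (SE 0.251, adjusted p = 0.0269). Neither group pair overlapped, but dLGN had only 2 arrays there. Without control dLGN 39_5 the differences were -0.75 and -0.84 and not called. The call of Sema5a was also lost without control VB 35_1 (-1.15) or 35_2 (-1.22), and that of Sema6a without control dLGN 35_1 (-1.34) or control VB 39_5 (-0.96). With the mean of the probe sets neither was called (-0.70 and -0.32). The actin gap as a covariate left both called (-1.23 and -1.17). In embBE at P0 the group means of both were also lower in VB, without a call (9.24 against 9.535 and 7.95 against 8.36).

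Of the 4 Unc5 netrin receptors, Unc5b and Unc5c were called, in opposite directions, and Unc5a and Unc5d in no nucleus comparison. Unc5b was higher in VB at P4. It read 8.69, 8.73 and 8.70 in control VB and 7.56, 7.63 and 7.94 in control dLGN, and 8.71, 8.72 and 8.90 in embBE VB and 7.87, 7.80 and 8.01 in embBE dLGN. The difference was 0.998 (SE 0.153, limma adjusted p = 4.46e-04) in controls and 0.88 (SE 0.153, adjusted p = 0.00124) in embBE, with no overlap and no call lost when any 1 array was left out. With the actin gap as a covariate it was 1.12 and 1.13. With the mean of its probe sets it was 0.72 in controls and still called, and 0.44 in embBE and not called. At P0 Unc5b was 0.55 and 0.38 higher in VB, below the threshold.

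Unc5c was lower in VB at P0 in both conditions. In controls it read 9.56, 9.23 and 9.06 in VB and 10.06 and 10.28 in dLGN, a difference of -0.89 (SE 0.149, limma adjusted p = 0.00206). In embBE it read 9.32, 9.33 and 9.73 in VB and 10.20, 10.18, 10.18 and 9.92 in dLGN, a difference of -0.66 (SE 0.125, adjusted p = 0.00291). The groups did not overlap in either condition. At P4 the embBE arrays still differed, with 9.24, 9.16 and 9.09 in VB against 9.68, 9.75 and 9.84 in dLGN (-0.59, SE 0.134, adjusted p = 0.0104), whereas the control difference was -0.17 and not called. The embBE effect on this gene in VB minus that in dLGN at P4 was -0.42 (limma adjusted p = 0.977), so a difference between the conditions was not shown. With the actin gap as a covariate the value was -0.82 in controls at P0 and still called, and -0.49 and -0.37 in embBE at P0 and P4 and not called. The mean of its probe sets gave -0.32 in embBE at P4, also not called. Control dLGN 39_5 (-0.78 without it, P0) and embBE dLGN 40_3 (-0.55 without it, P4) each decided a call.

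The remaining nucleus calls were smaller. The plexin Plxna4 read 8.59, 8.81 and 8.59 in embBE VB at P0 against 8.35, 7.94, 8.23 and 8.24 in dLGN, a difference of 0.48 (SE 0.131, limma adjusted p = 0.0321). The call was lost without any 1 of 5 of the 7 arrays, all but embBE dLGN 39_2 and 39_4, with values of 0.39 to 0.51. The actin gap as a covariate gave 0.67 for Plxna4, still called. A further 3 members were lower in VB than in dLGN in embBE mice at P4.

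Of these 3, the membrane semaphorin Sema6c read 8.86, 8.79 and 8.70 in VB and 9.35, 9.54 and 9.55 in dLGN (-0.70, SE 0.174, limma adjusted p = 0.0188). The neuropilin Nrp2, the receptor of Sema3f, read 7.08, 6.84 and 6.81 against 7.42, 7.70 and 7.49 (-0.62, SE 0.160, adjusted p = 0.0217). The secreted Sema3a, which signals through Nrp1, read 5.85, 5.62 and 5.84 against 6.17, 6.44 and 6.20 (-0.50, SE 0.126, adjusted p = 0.0196). No array overlapped in these 3 genes, and with the actin gap as a covariate none was called (-0.19, -0.21 and -0.51). With the mean of its probe sets Sema6c was at -0.49 and not called. The calls of Sema6c and Nrp2 were lost without dLGN 36_2 or 40_3 or VB 36_2 or 40_3 (-0.66 to -0.70 and -0.54 to -0.65), and that of Sema3a without dLGN 36_2 (-0.42) or VB 36_2 (-0.43). Slit1 to Slit3 and Robo1 to Robo4 had no call between nuclei, with differences of -0.48 to 0.24 for the Slits and -0.35 to 0.45 for the Robos.

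**Figure D2:**
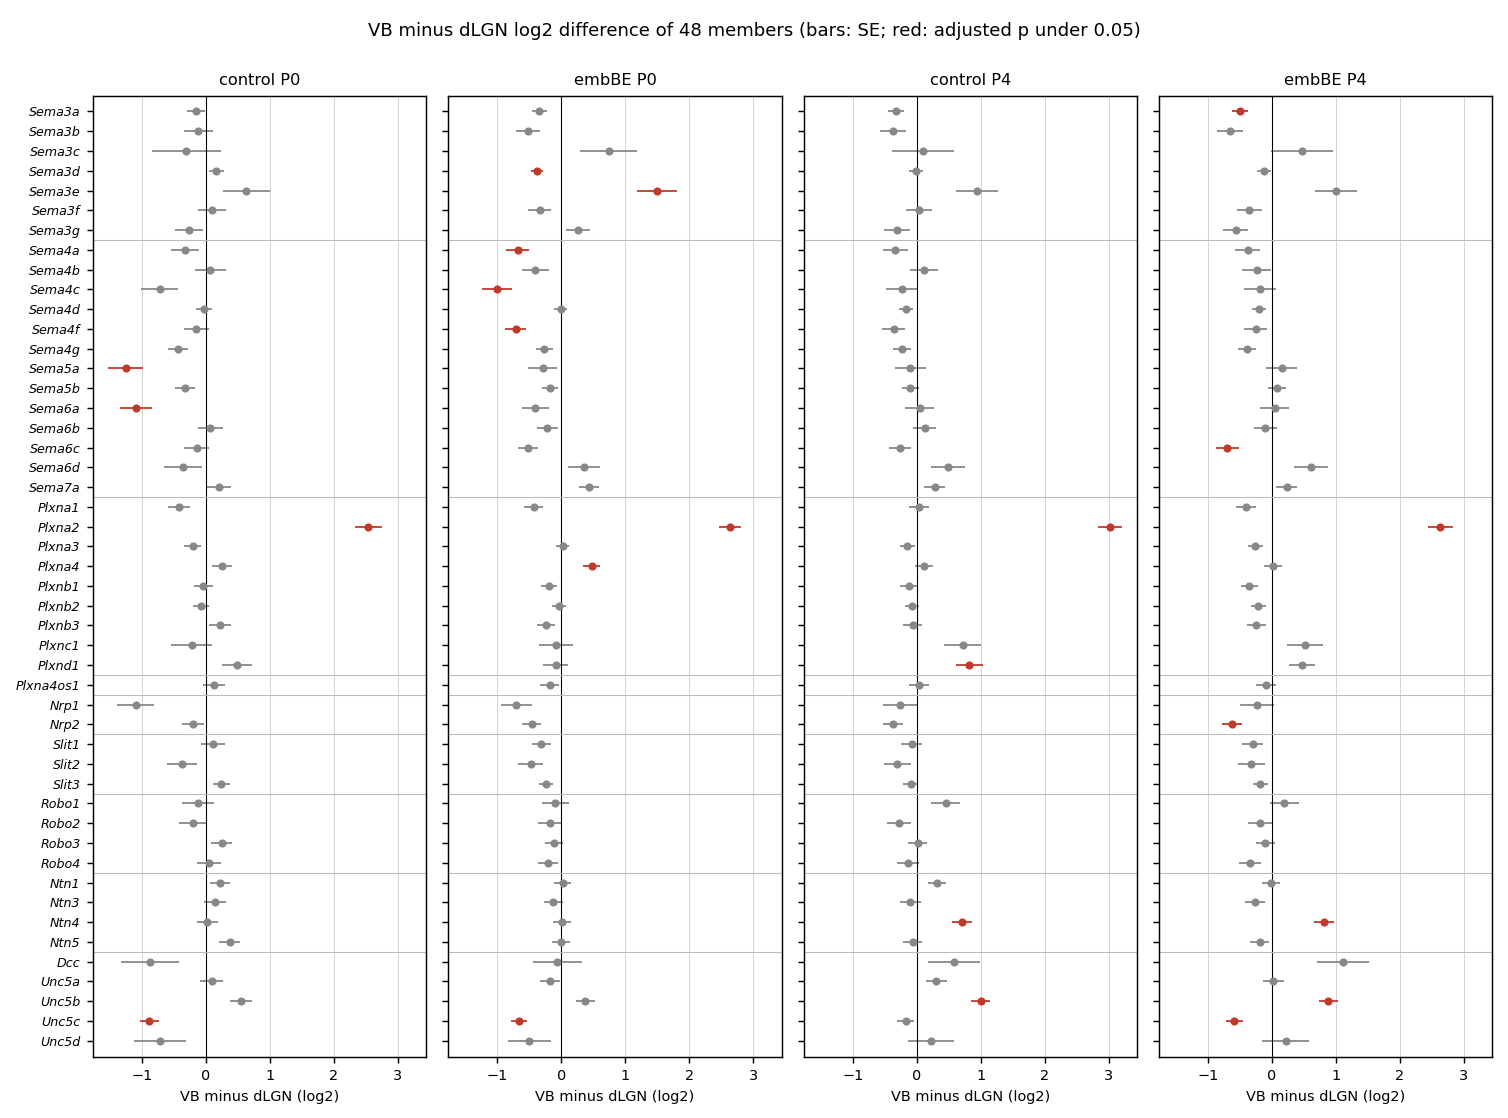
VB minus dLGN difference in log2 signal (x axis) of the 48 members (y axis, grouped by role from secreted semaphorins at the top to netrin receptors at the bottom), 1 panel for each age and condition. Points are limma estimates, bars are 1 SE and red marks an adjusted p under 0.05. Plxna2 stands at 2.54 to 3.02, and no other member passes 1.497 in either direction.

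Markers of other cell types also differed between the nuclei. Aqp4, an astrocyte gene, was lower in VB at P0, with differences of -2.70 in controls and -2.82 in embBE, while Gja1, Slc1a3, Fabp7 and Aldoc were higher in VB of embBE at P0, so that 5 of 8 astrocyte and radial glia genes were called there in 2 directions. Their summed level was 14.31 to 14.38 in embBE VB and 13.12 to 13.91 in embBE dLGN. Mbp, of oligodendrocytes, was higher in VB in both conditions at P4 (1.57 and 1.03) and in controls at P0 (1.23). In embBE at P0, where most members were called, 2 of 8 oligodendrocyte lineage genes were higher in VB, Olig1 (1.37) and Pdgfra (0.77), and the summed level of the list was 13.52 to 13.65 in VB and 13.09 to 13.33 in dLGN. There 1 of 5 cortical genes, Neurod6 (-0.70), and 1 of 12 vascular and meningeal genes, Pdgfrb (-0.92), were lower in VB. Gng8, 1 of 8 habenula genes, was higher in VB in embBE at P0 (0.78) and in both conditions at P4 (1.47 and 1.11). Another gene of that list was called lower in VB in controls at P4. The list medians in these comparisons were -0.21, -0.09 and -0.22. P2ry12 was the only 1 of 8 microglia genes called in embBE at P4 (1.09), where the list median was 0.01. Whether these cells had a part in the members' differences was not tested. Among the relay neuron markers, Rorb was higher in VB in the 4 comparisons (1.59 to 1.77) and Lhx2 lower (-1.95 to -1.29).

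Between P0 and P4 the members that changed were different in name in the 2 nuclei. In control VB, 4 members had an adjusted p under 0.05 (3.78% of all genes), all higher at P4 (2.32% of all genes). In embBE VB there were again 4 (3.42%), all higher (2.69%), and they were the same 4 genes, 100% of each list, in arrays that the 2 comparisons do not share. Both came from 1 fit of the 12 VB arrays, with a common estimate of the spread, and a fit of only the 2 groups compared called 0 members in control VB and 12 in embBE VB, these 4 among the 12. In control dLGN, 3 members were called (0.561%), all lower at P4 (0.308%), and in embBE dLGN 2 (1.02%), both lower (0.39%). These 2 were among the 3 of the controls, and fits of only the 2 groups compared called 0 and 1.

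In VB the guidance genes that rose were 2 membrane semaphorins, a netrin and a netrin receptor. Unc5b rose from 8.27, 7.77 and 7.93 at P0 to 8.69, 8.73 and 8.70 at P4 in controls, and from 7.95, 7.90 and 8.12 to 8.71, 8.72 and 8.90 in embBE. The increase was 0.72 (SE 0.127, limma adjusted p = 0.00950) and 0.78 (SE 0.127, adjusted p = 0.00589), and it kept its call without any 1 array. Ntn4 rose from 8.76, 8.36 and 8.21 to 9.12, 9.14 and 9.01 in controls and from 8.50, 8.27 and 8.43 to 8.95, 9.36 and 9.22 in embBE, by 0.65 (SE 0.148, adjusted p = 0.0302) and 0.78 (SE 0.148, adjusted p = 0.0140). In both genes all P4 arrays of VB lay above all P0 arrays of their condition. The P4 levels of both exceeded those of dLGN, as given above.

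Sema5a rose in VB from 8.71, 8.85 and 9.22 to 9.94, 9.96 and 9.75 in controls, by 0.95 (SE 0.199, limma adjusted p = 0.0214). In embBE it rose from 9.01, 9.41 and 9.31 to 10.53, 10.19 and 9.68, by 0.89 (SE 0.199, adjusted p = 0.0287). Its P4 levels in VB were close to those of dLGN at P4 (9.99, 10.11 and 9.86 in controls), with a nucleus difference of -0.10 in controls. Sema6d, another membrane semaphorin, rose from 9.43, 9.93 and 9.70 to 10.81, 10.27 and 10.53 in controls and from 10, 9.94 and 9.73 to 10.58, 10.43 and 10.70 in embBE. The increase was 0.85 (SE 0.158, adjusted p = 0.0121) and 0.68 (SE 0.158, adjusted p = 0.0344). No P0 array of either gene overlapped a P4 array of its condition.

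These calls in VB depended on single arrays more than that of Unc5b did. In controls, that of Sema5a was lost without P0 35_1 (0.85), P4 24_2 (0.92) or P4 40_1 (1.02), and that of Sema6d without P4 24_2 (0.72) or P4 40_1 (0.85). That of Ntn4 was lost without P0 35_2 (0.61), P0 39_5 (0.53), P4 24_2 (0.64) or P4 40_1 (0.69). In embBE the increase of Sema6d was lost without any 1 of its 6 arrays (0.60 to 0.75), that of Sema5a without any but P4 40_3 (0.69 to 0.97), and that of Ntn4 without P0 39_3 (0.71), P0 39_4 (0.79), P4 36_2 (0.69) or P4 40_3 (0.76). When a gene's probe sets were averaged only Sema5a was called, in both conditions (0.59 and 0.53). The values of the other 3 genes were then 0.16 to 0.51.

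In dLGN the members that fell were Sema4c, Plxna1 and Unc5c. Sema4c, a membrane semaphorin, fell from 9.93 and 10.15 at P0 to 8.39, 8.50 and 8.79 at P4 in controls (-1.48, SE 0.182, limma adjusted p = 0.00904). In embBE it fell from 9.84, 10.25, 10.13 and 10.39 to 8.89, 8.81 and 9.09 (-1.22, SE 0.152, adjusted p = 0.00395). The groups did not overlap in either condition. The gene has 1 probe set, and the embBE call held without any 1 array and under each other alternative, whereas the control call was lost without either P0 array (-1.59 and -1.38).

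Plxna1, a plexin that with neuropilins forms the receptor of class 3 semaphorins, fell from 9.83 and 9.97 to 9.13, 9.29 and 9.28 in control dLGN (-0.67, SE 0.123, limma adjusted p = 0.0375). In embBE dLGN it fell from 10.03, 10, 10.09 and 10.16 to 9.45, 9.45 and 9.58 (-0.57, SE 0.103, adjusted p = 0.0222). Unc5c fell from 10.06 and 10.28 to 9.31, 9.45 and 9.56 in control dLGN (-0.73, SE 0.141, adjusted p = 0.0417), and its change in embBE dLGN was -0.37 and not called. P0 arrays lay above P4 arrays in each of these pairs. The control calls of both genes were lost without any 1 of the 5 arrays (-0.59 to -0.74 for Plxna1 and -0.62 to -0.84 for Unc5c). The embBE call of Plxna1 was lost without P0 39_2 or 35_3 or any P4 array (-0.54 to -0.62). With the mean of the probe sets neither gene was called, at -0.26 and -0.33 for Plxna1 and -0.59 for Unc5c.

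**Figure D3:**
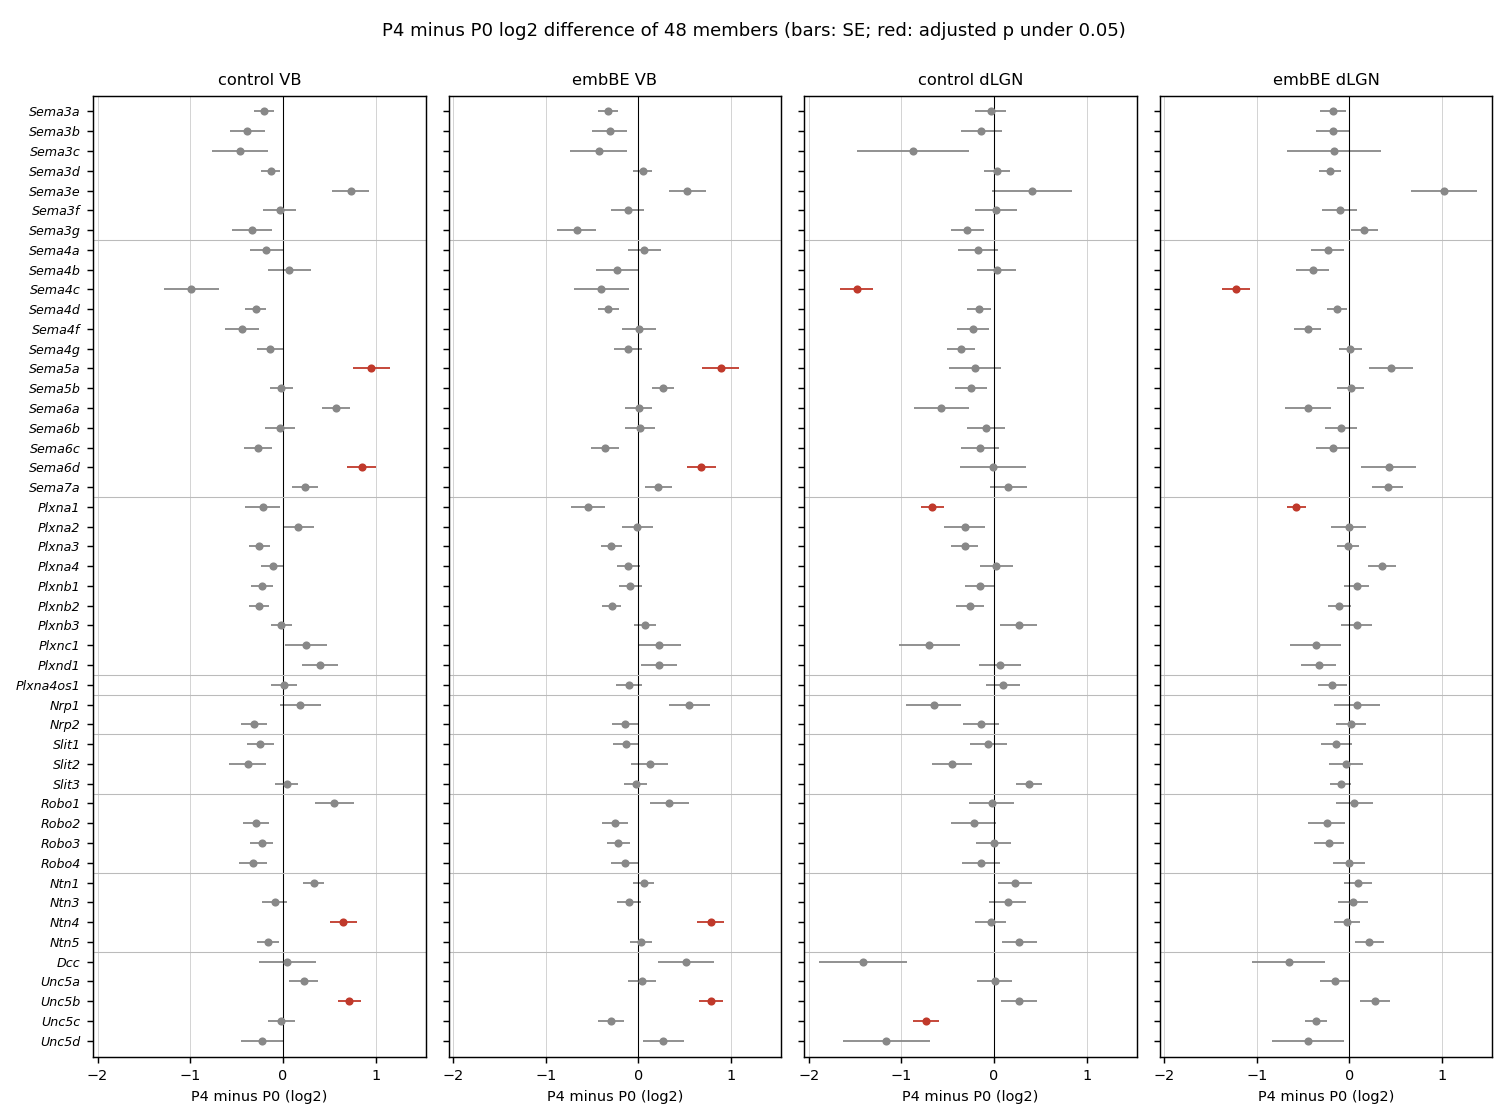
P4 minus P0 difference in log2 signal (x axis) of the 48 members (y axis, grouped by role), 1 panel for each nucleus and condition. Points are limma estimates, bars are 1 SE and red marks an adjusted p under 0.05. Red points lie to the right of 0 in VB and to the left of 0 in dLGN.

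The difference between the nuclei in the change with age was tested in controls, and no member passed (limma, 0 of 48; 0.022% of all genes). At an unadjusted p under 0.05 there were 8 members (6.86% of all genes). Their largest values included Sema5a with 1.16, Sema6a with 1.14, Unc5c with 0.72 and Ntn4 with 0.69, and the smallest adjusted p of a member was 0.579. The changes named for VB and dLGN were therefore not shown to be particular to a nucleus. Sema4c in VB, for instance, had a change of -0.99 in controls and -0.40 in embBE.

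**Figure D4:**
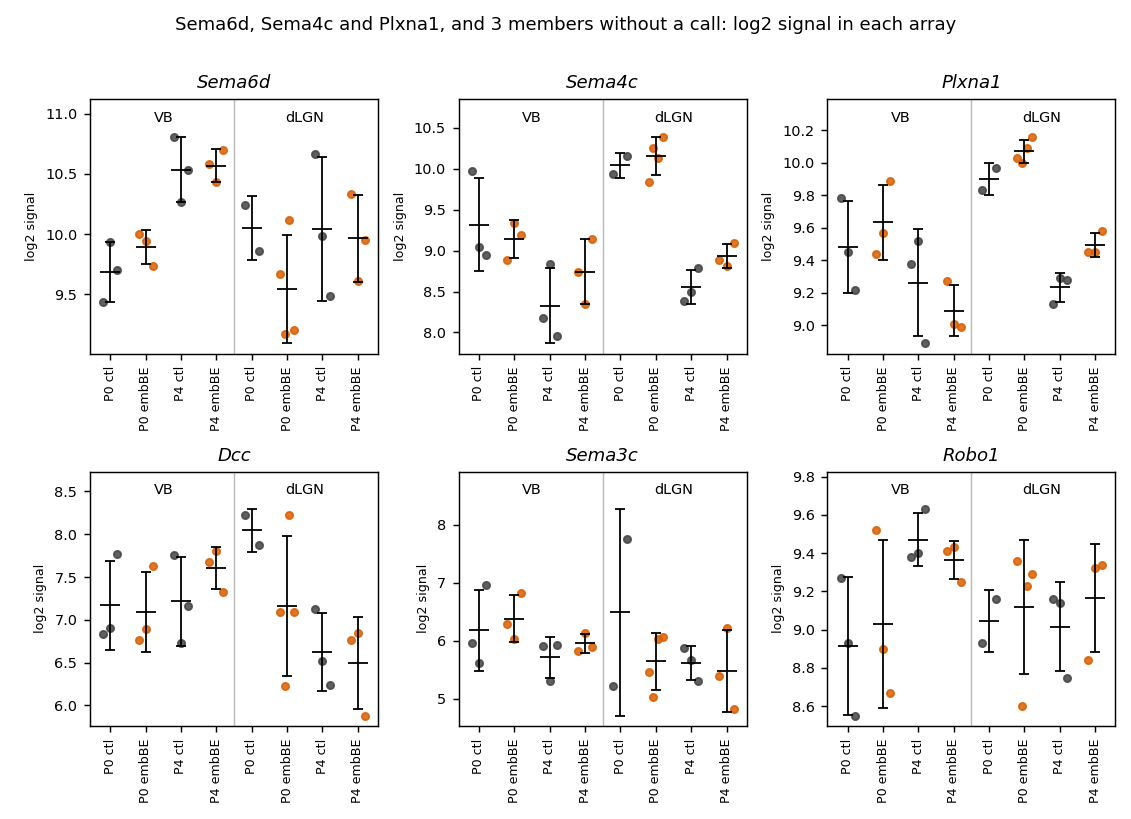
Log2 signal of Sema6d, Sema4c and Plxna1, called between ages, and of Dcc, Sema3c and Robo1, which had no call (y axis), in each array by group (x axis; ctl, control). Points are arrays, grey for control and orange for embBE, and bars are the group mean and SD. Sema4c falls between P0 and P4 in dLGN, and Sema3c has 1 control dLGN array at 7.75.

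Some glial genes rose over the same days. In VB 3 of 8 astrocyte and radial glia genes were called higher at P4 in each condition, among them Aqp4 (3.72 and 3.91) and Gja1 (1.19 and 1.49). Their summed level went from 13.95 to 14.61 at P0 to 14.77 to 15.16 at P4 in control VB, and from 14.31 to 14.38 to 15.08 to 15.09 in embBE VB. In dLGN 1 of 8 was called, Gja1 (1.61 and 1.81). P2ry12, of microglia, and Olig2, of the oligodendrocyte lineage, also rose in VB. In each condition only 1 of 8 genes of each of these lists was called there. The list medians were 0.13 for microglia and 0.09 for the oligodendrocyte lineage in controls, and 0.28 and 0.15 in embBE. The part of these cells in the members' changes was not tested. The Slits, Robos, secreted semaphorins and neuropilins had no call between ages, with changes of -0.87 to 1.02 for the secreted semaphorins and -0.33 to 0.55 for the Robos.

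Removal of the eyes before birth left no change in these genes that passed an adjusted p of 0.05. In limma, 0 of 48 members were called in VB at P0, VB at P4, dLGN at P0 or dLGN at P4, and 0% of all genes were. At an unadjusted p under 0.05 there were 3 members in VB at P0 (6.7% of all genes), 1 in VB at P4 (3.98%), 4 in dLGN at P0 (2.38%) and 3 in dLGN at P4 (1.3%). At the threshold of the study, a fold change of 1.5 with an unadjusted p under 0.05, there were 0 in VB at P0 (0.726% of all genes), 0 in VB at P4 (0.159%), 2 in dLGN at P0 (0.445%) and 0 in dLGN at P4 (0.198%). The 2 were lower in embBE (0.357%).

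These were Sema5a and Nrp1, the neuropilin that binds Sema3a. Sema5a read 9.82, 9.74, 9.54 and 9.04 in embBE dLGN at P0 and 9.69 and 10.69 in controls (-0.65, SE 0.267, unadjusted p = 0.0305 and adjusted p = 0.851 in limma). Nrp1 read 9.44, 8.35, 8.61 and 8.49 in embBE and 9.08 and 9.62 in controls (-0.62, SE 0.278, unadjusted p = 0.0445 and adjusted p = 0.851). The groups overlapped in both genes. Without control 39_5 the differences were -0.15 and -0.35 and not past the threshold, as was the case without embBE 35_3 (-0.49 and -0.55). Nrp1 was also lost without embBE 39_3 (-0.50) or 39_4 (-0.59), and when dim probe sets were left out. Neither gene passed the threshold by the methods' t-test, in a fit of the 2 groups only, after cyclic loess (-0.54 for both) or with probe sets averaged (-0.37 and -0.42). In the same comparison 2 of 8 astrocyte and radial glia genes passed the study's threshold lower and 0 higher. The list median was -0.37, against 0.03 for all genes. The summed level of the list was 13.12 to 13.91 in embBE and 14.10 to 14.27 in the 2 controls. The part of these cells in the 2 members' differences was not tested.

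The 95% intervals show what sizes of change the arrays allow. The estimates of the 48 members ran from -0.40 to 0.40 in VB at P0, from -0.43 to 0.41 in VB at P4, from -0.89 to 0.43 in dLGN at P0 and from -0.16 to 0.43 in dLGN at P4. The distance from the estimate to either end of the interval had a median of 0.32 in both VB comparisons, 0.41 in dLGN at P0 and 0.39 in dLGN at P4. The interval lay within a 2-fold change either way for 48, 46, 41 and 45 members in that order. For Plxna2 the difference between embBE and control was 0.22 (95% interval -0.14 to 0.58) in VB at P0, 0.04 (-0.32 to 0.40) in VB at P4, 0.12 (-0.33 to 0.58) in dLGN at P0 and 0.43 (-0.0018 to 0.86) in dLGN at P4.

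**Figure D5:**
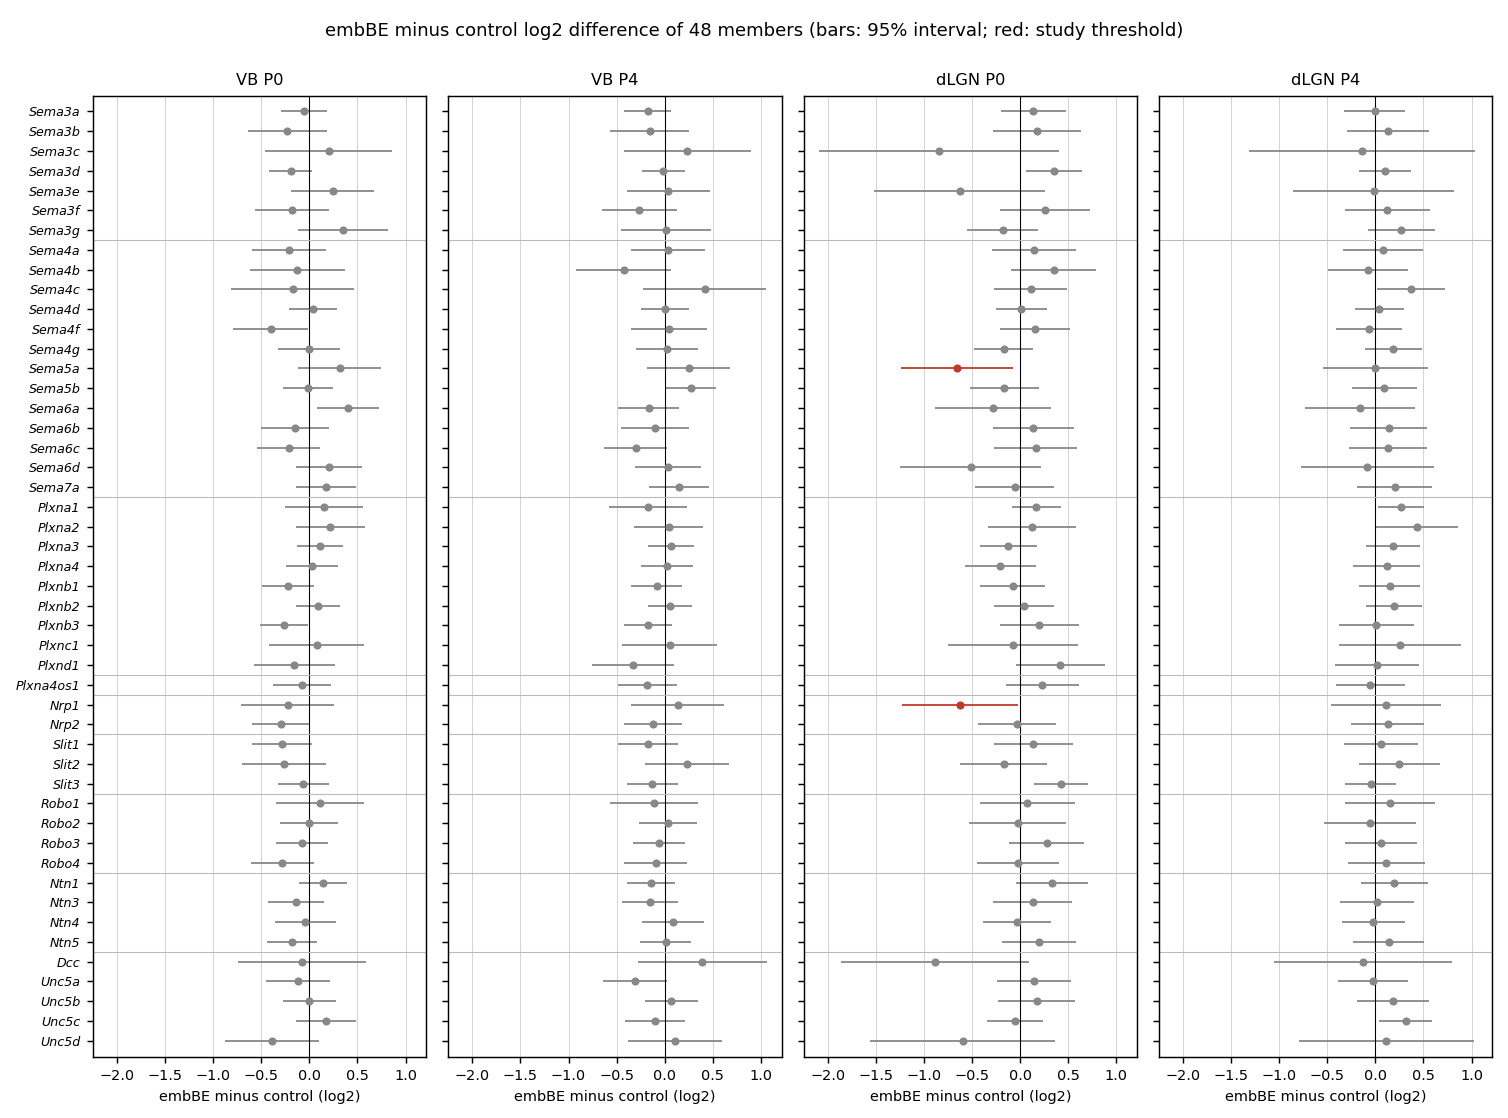
embBE minus control difference in log2 signal (x axis) of the 48 members (y axis, grouped by role), 1 panel for each nucleus and age. Points are limma estimates, bars are 95% intervals and red marks the threshold of the study. Sema5a and Nrp1 in dLGN at P0 are red, and the widest bars are those of Sema3c in dLGN.

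No difference between embBE effects passed either (limma, 0 of 48 members and 0% of all genes in 4 contrasts). The effect in VB minus that in dLGN had 5 members at an unadjusted p under 0.05 at P0 (5.86% of all genes) and 1 at P4 (2.06%). The change of the effect from P0 to P4 had 1 in VB (1.62%), Sema6a with -0.57, and 1 in dLGN (0.786%), Slit3 with -0.47.

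The proteins that work with these ligands and receptors were read from 3 lists, 21 semaphorin partners, 14 Slit and Robo partners and 15 netrin partners measured. Draxin, a secreted protein that binds Dcc, fell between P0 and P4 in the 4 age comparisons, by 1.004 and 1.03 in control and embBE VB and by 0.95 and 0.91 in control and embBE dLGN (limma adjusted p of 0.00774, 0.00677, 0.0381 and 0.0156). It was the only netrin partner called with age. Of the semaphorin partners, Farp2, an exchange factor that acts below plexins, rose in VB (0.68 in controls, adjusted p = 0.0233, and 0.61 in embBE, adjusted p = 0.0380). Rnd1, a GTPase that binds plexins, rose by 0.94 in embBE VB (adjusted p = 0.0259), and Dpysl4, of the collapsin response mediators, fell by 0.62 in control VB (adjusted p = 0.0258). No Slit and Robo partner was called with age.

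Between nuclei, Fes, a kinase of semaphorin signalling, was lower in VB in the 4 comparisons, with differences of -0.78 and -0.47 in controls and embBE at P0 and -0.77 and -0.76 at P4 (limma adjusted p of 0.0152, 0.0416, 0.00347 and 0.00311). Rgma, a ligand of neogenin, was lower in VB in controls at P0 (-1.13, adjusted p = 0.0208) and in embBE at P0 (-0.83, adjusted p = 0.0211) and P4 (-1.18, adjusted p = 0.00279). Flrt2, a ligand of Unc5 receptors, was higher in VB in embBE at P0 (0.79, adjusted p = 0.0443) and at P4 in controls (1.28, adjusted p = 0.00414) and embBE (1.20, adjusted p = 0.00588). Called in 1 or 2 comparisons, Lrrc4 was higher in VB (0.48 in embBE at P0 and 0.66 in controls at P4), Rnd1 higher in embBE at P4 (0.78) and Dpysl4 lower in embBE at both ages (-0.60 and -0.47). Of the Slit and Robo partners 1 was called, Abl1, lower in VB of embBE mice at P4 (-0.34, adjusted p = 0.0445). None of the partners was called at an adjusted p of 0.05 between embBE and control.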

How the data were processed

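Gene expression was measured on 24 Affymetrix mouse genome arrays, and the deposited values are log2 signals that the authors had background-corrected, normalized and summarized by RMA, whose version the sources used here do not name. Of 45101 probe sets, 34958 had 1 gene symbol in the platform annotation, updated through Entrez identifiers for 34754, and 932 had several and were left out. The members and gene lists were chosen with earlier results of these data known. Differences were fitted over 18194 genes with limma 3.58.1 in R 4.3.3. VB and dLGN, of 12 arrays each, were fitted apart for age and condition, and all 24 arrays together for comparisons between nuclei, with the label-number pair as a random block (correlation -0.0196). P-values were Benjamini-Hochberg adjusted over all genes, with a threshold of 0.05. Array values are given for up to 4 called members a direction with the largest change, and for every member past the study's threshold in an embBE comparison. Sema3d, Abl1, partners beyond 3 a comparison, and members named at an unadjusted p were chosen after their values were seen. Alternatives were leaving out each array, median centring, cyclic loess, the mean of a gene's probe sets, leaving out dim probe sets, other blocks, only the 2 groups compared, and the methods' t-test. The actin gap covariate was added after seeing the data. The scripts were tested on simulated data. Precision is limited by the number of arrays.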

Additional observations from a re-analysis of the deposited data

Results flagged for a closer look

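In the 4 embBE arrays of dLGN at P0, Unc5c read 9.92 in array 35_3 and 10.18 or more in the other 3, and the gap to the nearest array was 0.936 of the group's range, above Dixon's critical value for 4 arrays. Chance marks about 1 in 20 groups in this way.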

How the results depend on the processing

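No named difference changed direction under any alternative run. In counts of members called, the methods' t-test gave 0 for embBE against control in dLGN at P0, as did cyclic loess, the mean of probe sets and a fit of the 2 groups only, and leaving out dim probe sets gave 1. For P4 against P0, a fit of the 2 groups only gave 0 in control VB, 12 in embBE VB, 0 in control dLGN and 1 in embBE dLGN. Cyclic loess gave 1 in control dLGN and 1 in embBE dLGN. The mean of probe sets gave 1 in control VB, 1 in control dLGN and 1 in embBE dLGN, and 4 for VB against dLGN in embBE at P4. The actin gap as a covariate gave 1 for embBE against control in VB at P4, 7 for age in control VB, and 2 and 3 for VB against dLGN in embBE at P0 and P4. Leaving out 1 array gave 0 to 1 members for embBE in VB at P0 and at P4, 0 to 4 in dLGN at P0 and 0 to 0 in dLGN at P4. For age it gave 1 to 7 in control VB, 1 to 2 in embBE VB, 0 to 1 in control dLGN and 1 to 2 in embBE dLGN. For VB against dLGN it gave 1 to 4 and 4 to 12 in control and embBE at P0, and 2 to 4 and 4 to 7 at P4. For the 5 differences of effects it gave 0 to 0. The cause was not tested.

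Whether the label numbers pair the arrays was not settled. Deviations from the group mean, for arrays with the same pair of numbers, correlated at -0.55 to 0.72 over 11 pairs, 3 of them above 0.1. In groups this small the deviations within a group are tied to each other, so this check cannot exclude a pairing. With the pair as a fixed replicate block, VB against dLGN had 3 members in controls and 3 in embBE at P0, and 4 and 6 at P4. Of the named nucleus calls 12 held in that fit and 10 were lost. Lost were Sema6a and Unc5c in controls at P0, and Sema4f, Sema4a, Plxna4 and Unc5c in embBE at P0. In embBE at P4 the calls of Sema6c, Nrp2, Unc5c and Sema3a were lost. The 6 members there thus included some that the main fit did not call. With no replicate block it had 4, 9, 4 and 8. With the first label number as a replicate block, embBE against control had 0, 0, 2 and 0 members in VB at P0 and P4 and dLGN at P0 and P4.

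Over all genes, embBE against control at the study's threshold had 132, 29, 81 and 36 genes in that order, 28, 6, 28 and 19 by the methods' t-test, and 14, 18, 127 and 60 with the actin gap. Age had 687 and 623 genes in control and embBE VB and 102 and 186 in dLGN, 50, 3038, 13 and 88 with the 2 groups only, and 1780, 1542, 190 and 510 with the actin gap. VB against dLGN had 284, 1357, 584 and 1535 genes, and 155, 508, 487 and 819 with the fixed block.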
